A study of Mus musculus with 6 samples.

Results

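The immediate early and AP-1 genes described here are *Fos*, *Fosb*, *Fosl1*, *Fosl2*, *Jun*, *Junb*, *Jund*, *Egr1*, *Ier2* and *Atf3*. They were chosen by gene name from the deposited expression table, in which each name occurred once, and they are 10 of its 55416 genes. The table holds RNA sequencing of muscle satellite cells (SCs), the stem cells of skeletal muscle, from 3 libraries of wild-type (WT) mice and 3 libraries of mice without lactoferrin (*Ltf*-KO). The *Ltf*-KO line is a systemic deletion of part of the gene, made by CRISPR-Cas9 in C57/BL6N zygotes. All cells of the animal carry this deletion and not SCs alone. SCs of both genotypes were flow-sorted from digested muscle as Sca1-/CD11b-/CD34+/α7-integrin+ cells and grown on Matrigel for 4 days without other treatment, in medium containing basic fibroblast growth factor (10 ng/mL), chick embryo extract (1%) and fetal bovine serum (20%). According to the study's methods, mice were young adults in all experiments for which no other age is stated, and no sex is given. The labels do not say whether each library came from another animal, so p-values measure only the spread between these libraries, which may be technical.

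Immediate early genes are transcribed within minutes of a growth factor, serum or stress signal, without the need for new protein, because the factors that drive them are already bound or are switched on by kinases such as ERK1/2, JNK and p38. AP-1 is a dimer of basic leucine zipper (bZIP) proteins: a Jun protein pairs with itself or with a Fos protein, and Fos proteins do not pair with themselves. In muscle, Fos and other immediate early transcripts are known to rise when SCs leave quiescence and during tissue digestion, and Fosl1 is a longer-lived member kept up by continued ERK signaling.

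RNA of the targeted gene *Ltf* was near 0 in both genotypes (WT 0.12, 0.02 and 0.02 TPM, *Ltf*-KO 0.02, 0.03 and 0 TPM), so its level does not tell the genotypes apart. TPM, a relative transcript abundance scaled to a common total, divides reads by transcript length, so levels of different genes can be set side by side, but it keeps no read depth. The columns summed to 993650 to 994356 TPM, and each library held 12828 to 12951 genes at 1 TPM or more. The SC and myoblast markers were present in every library, with a summed level of 1987 to 2066 TPM over 8 genes, while the pan-leukocyte gene *Ptprc* was at 0 to 0.16 TPM. Macrophage markers with higher values are given below.

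The promoters of those members that hold a sequence related to the cAMP response element (CRE) or the AP-1 site are shown, since AP-1 and the related ATF/CREB proteins bind such sites. Of the 10 genes, 7 have an entry in the RefSeq promoter table of build GRCm38.p6, and *Fosl1*, *Egr1* and *Ier2* do not. The 120 bases before the annotated start were searched on both strands for TGACG, the core of the CRE, which was found in *Fos*, *Fosb*, *Junb* and *Atf3*, and for TGACATCA, a variant AP-1 site, which was found in *Jun*. Among 32851 promoter windows of this length, 11.7% held TGACG and 2.10% held TGACATCA. The full CRE, TGACGTCA, which contains TGACG, was in 1.24% of all windows and in 0 of the 7, the canonical AP-1 site TGACTCA was in 2.30% and in 0 of the 7, and the CArG box, bound by SRF, was in 0.749% and in 0 of the 7. Such matches describe the letters only. Sequence further upstream and the genes without an entry were not searched, so 0 of the 7 does not show that a gene lacks the site. In the sequences below, written 5′ to 3′ in the direction of transcription and ending at the base before the start, capitals mark the match. The starts are those of RefSeq and differ in part from GENCODE M21. The last bases of the *Fosb* window and of the *Atf3* window, there with the match, lie in the first exon of a GENCODE M21 transcript. Among the 7 windows but not printed, that of *Jund* (chr8:70697619-70697738) ends before the GENCODE gene start at 70698949. That of *Fosl2* (chr5:32136352-32136471) lies inside the gene, which starts at 32135801, and the *Atf3* window also lies inside its gene.
*Fos* (chr12:85473770-85473889, plus strand): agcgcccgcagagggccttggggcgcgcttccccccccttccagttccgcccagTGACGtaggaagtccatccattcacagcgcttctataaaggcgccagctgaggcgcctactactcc
*Fosb* (chr7:19310046-19310165, minus strand): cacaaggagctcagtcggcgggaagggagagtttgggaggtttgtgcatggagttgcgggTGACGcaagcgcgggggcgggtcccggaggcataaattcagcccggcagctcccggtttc
*Junb* (chr8:84978749-84978868, minus strand): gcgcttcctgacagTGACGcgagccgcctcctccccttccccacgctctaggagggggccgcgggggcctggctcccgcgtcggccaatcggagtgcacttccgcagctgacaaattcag
*Atf3* (chr1:191183334-191183453, minus strand): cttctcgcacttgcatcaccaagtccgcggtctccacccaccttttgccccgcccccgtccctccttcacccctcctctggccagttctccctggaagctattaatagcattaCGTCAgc
*Jun* (chr4:95052223-95052342, minus strand): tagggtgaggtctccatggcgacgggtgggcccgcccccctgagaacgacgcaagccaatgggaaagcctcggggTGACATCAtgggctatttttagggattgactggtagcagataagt

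The TGACG of *Fos* began at position -66 from the start and that of *Fosb* at -60, that of *Junb* at -106, and the reverse-strand match of *Atf3* at -7. *Fos* also held a TATAA element at -33, which 11.8% of all windows held. In the GENCODE M21 annotation of GRCm38, *Jun*, *Junb*, *Jund* and *Ier2* have a principal transcript of 1 exon, *Egr1* has 2 exons, and *Fos*, *Fosb*, *Fosl1*, *Fosl2* and *Atf3* have 4 exons each. *Jund*, *Junb* and *Ier2* lie on chromosome 8, with 312 kb between *Ier2* (84661331 to 84662852) and *Junb* (84974484 to 84978718). *Fos* lies on chromosome 12 from 85473890 to 85477273, 122 kb from *Jdp2* and 209 kb from *Batf*, both also bZIP genes. In the deposited annotation, 8 of the 10 genes (all but *Egr1*, a zinc finger factor, and *Ier2*, a nuclear response protein) carry a bZIP domain, and the 7 Fos and Jun genes are among the 127 genes of the KEGG pathway osteoclast differentiation.

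All 10 transcripts were detected in all 6 libraries. *Junb*, *Fosl1*, *Jun* and *Egr1* were at about 100 TPM, above at least 89.4% of the tested genes, *Ier2*, *Jund*, *Fosl2* and *Fosb* followed, and *Fos* and *Atf3* were lowest. As means of 6 libraries, the order was *Junb* (121 TPM), *Fosl1* (119.8 TPM), *Jun* (119 TPM), *Egr1* (101 TPM), *Ier2* (60.6 TPM), *Jund* (39.9 TPM), *Fosl2* (16.05 TPM), *Fosb* (10.4 TPM), *Fos* (6.42 TPM) and *Atf3* (4.02 TPM). The ranges over libraries overlapped between *Junb*, *Fosl1* and *Jun*, each of which was higher than the next in 4 of 6 libraries, so these 3 levels did not differ beyond their spread. The ranges of *Fosl1* and *Egr1*, of *Fosb* and *Fos*, and of *Fos* and *Atf3* also overlapped, although within each library the first was higher in 6 of 6. The other neighbours in this order did not overlap.

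**Figure D1:**
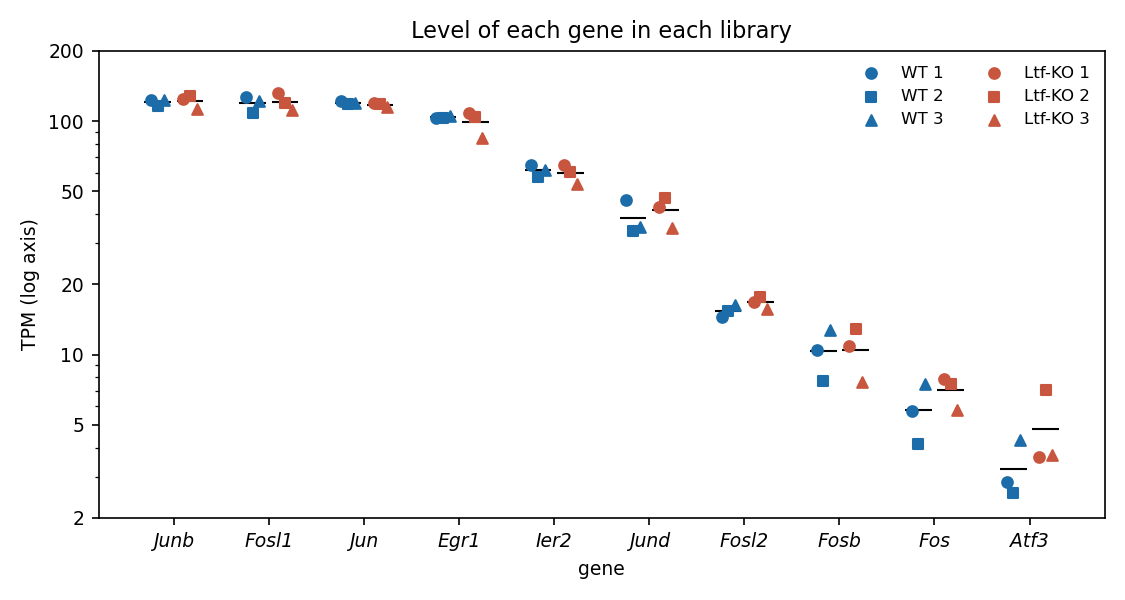
TPM of each gene on a log axis in the 3 WT (blue) and 3 *Ltf*-KO (red) libraries, with replicates told apart by symbol and a bar at each genotype's mean. *Junb*, *Fosl1* and *Jun* lie together near 120 TPM, *Atf3* is lowest, and the groups overlap for all 10 genes.

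*Fos*, the founding member of its family, was at 5.75, 4.16 and 7.52 TPM in WT and at 7.87, 7.45 and 5.77 TPM in *Ltf*-KO SCs. The lowest value was in WT replicate 2, and the groups overlapped. On the log2(TPM + 1) scale the difference between *Ltf*-KO and WT was 0.26 (standard error 0.20, 95% confidence interval -0.22 to 0.74), and it was 0.07 without WT replicate 2. *Fosb*, a close relative of *Fos* whose protein also activates transcription, was at 10.5, 7.74 and 12.8 TPM in WT and at 10.9, 12.9 and 7.62 TPM in *Ltf*-KO SCs. Each genotype thus had 1 library near 7.7 TPM, WT replicate 2 and *Ltf*-KO replicate 3, and the genotype means of 10.3 ± 2.52 and 10.5 ± 2.66 TPM (SD, n = 3 each) lay closer together than the libraries within either. The log2 difference was 0.01 (95% confidence interval -0.52 to 0.55). It turned negative without WT replicate 2 (-0.16), without *Ltf*-KO replicate 1 (-0.03), without *Ltf*-KO replicate 2 (-0.14) and with quantile normalization (-0.01).

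*Fosl1*, which encodes Fra-1 and lacks the strong activating segment of *Fos*, was at 126, 108 and 122 TPM in WT and at 131, 119 and 112 TPM in *Ltf*-KO SCs, with a log2 difference of 0.02 (95% confidence interval -0.17 to 0.21). The lowest library of each genotype was again WT replicate 2 and *Ltf*-KO replicate 3, and the difference was -0.05 without the first and -0.04 without *Ltf*-KO replicate 1. *Fosl2*, which encodes Fra-2, was at 14.4, 15.3 and 16.35 TPM in WT and at 16.8, 17.7 and 15.7 TPM in *Ltf*-KO SCs. Its groups overlapped only in that *Ltf*-KO replicate 3 was below WT replicate 3. Its log2 difference was 0.12 (standard error 0.070, 95% confidence interval -0.05 to 0.28).

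*Fosl1* made up most of the Fos family RNA. Its share of the summed TPM of *Fos*, *Fosb*, *Fosl1* and *Fosl2* was 79.1% ± 1.88 in WT and 77.9% ± 1.90 in *Ltf*-KO SCs (SD, n = 3 each), while *Fos* itself held 3.82% ± 0.84 and 4.52% ± 0.368. In the Jun family, *Jun* and *Junb* shared most of the RNA, with 43.0% and 43.3% in WT and 41.9% and 43.4% in *Ltf*-KO SCs, and *Jund* held 13.7% and 14.7%. The summed Jun family RNA was 1.72 to 1.99 times the summed Fos family RNA in the 6 libraries, with WT and *Ltf*-KO overlapping.

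**Figure D2:**
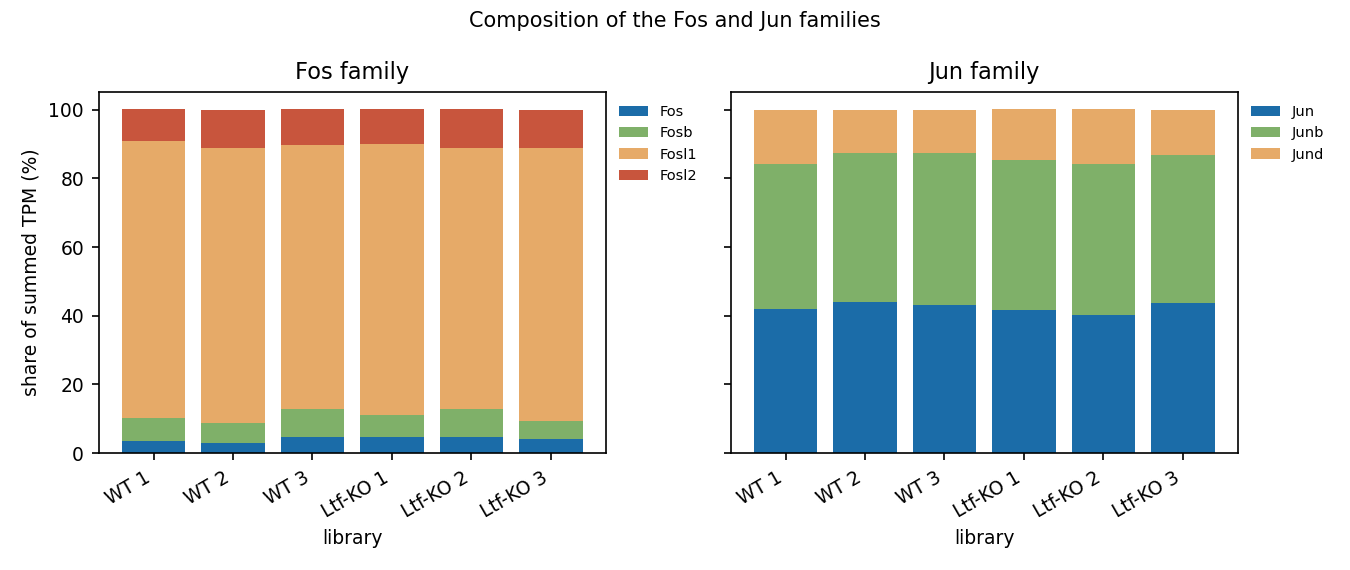
Share (%) of each member in the summed TPM of the Fos family (left) and the Jun family (right), 1 bar for each library. *Fosl1* takes 75.8% to 80.5% of the Fos family in every library, and *Jun* and *Junb* take similar shares of the Jun family.

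*Jun*, the Jun protein with the strongest activating function and the main target of JNK, was the steadiest of the 10 genes. It was at 122, 119 and 119 TPM in WT and at 119.7, 118 and 115 TPM in *Ltf*-KO SCs, with *Ltf*-KO replicate 3 lowest. The log2 difference was -0.03 (standard error 0.035, 95% confidence interval -0.11 to 0.05). This interval was the narrowest of the 10 and reached further below 0 than above it. *Junb*, which can restrain Jun activity and helps maintain muscle mass, was at 123, 116 and 123 TPM in WT and at 125, 129 and 112 TPM in *Ltf*-KO SCs, with a log2 difference of 0.01 (95% confidence interval -0.13 to 0.15). This value turned negative without WT replicate 2 (-0.015), without *Ltf*-KO replicate 1 (-0.0068), without *Ltf*-KO replicate 2 (-0.029) and with median-of-ratios scaling (-0.00091). *Jund*, the Jun gene usually expressed without stimulation, was at 45.8, 33.9 and 35.3 TPM in WT and at 42.7, 46.8 and 34.9 TPM in *Ltf*-KO SCs. It formed a higher cluster of 1 WT and 2 *Ltf*-KO libraries and a lower one of 2 WT and 1 *Ltf*-KO library, and its log2 difference was 0.11 (standard error 0.15, 95% confidence interval -0.24 to 0.46). Leaving out WT replicate 1 gave 0.25, and leaving out *Ltf*-KO replicate 2 gave 0.02.

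*Egr1*, a zinc finger factor that responds to ERK through SRF and its partners, was nearly equal in the WT libraries, at 102.8, 102.7 and 105.6 TPM. In *Ltf*-KO SCs it was at 109, 104 and 84.6 TPM, so that the coefficient of variation was 1.58% in WT and 12.9% in *Ltf*-KO SCs through 1 library, replicate 3. The log2 difference was -0.07 (95% confidence interval -0.29 to 0.15), and 0.04 without *Ltf*-KO replicate 3. *Ier2* was at 64.7, 57.6 and 62.0 TPM in WT and at 64.8, 60.6 and 53.8 TPM in *Ltf*-KO SCs, a log2 difference of -0.04 (95% confidence interval -0.23 to 0.15) that was 0.03 without *Ltf*-KO replicate 3. *Atf3*, a stress-induced bZIP factor that pairs with Jun proteins and often represses, was at 2.85, 2.55 and 4.29 TPM in WT and at 3.64, 7.07 and 3.72 TPM in *Ltf*-KO SCs. Its log2 difference of 0.43 was the largest of the 10 (standard error 0.26, 95% confidence interval -0.19 to 1.05), and it was 0.17 without *Ltf*-KO replicate 2, the library at 7.07 TPM.

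In the comparison of *Ltf*-KO with WT by limma on log2(TPM + 1), over the 12956 genes that averaged 1 TPM or more, 0 of the 10 genes had an adjusted p under 0.05 (Benjamini-Hochberg), as was so for all genes (0.0% called), and each of the 10 had an adjusted p of 0.999. At an unadjusted p under 0.05, 0 of the 10 passed, against 490 of all genes, a share of 3.78% (2.01% higher and 1.78% lower in *Ltf*-KO). Of these 490, 46.9% were lower in *Ltf*-KO, a share that was 60.0% with quantile normalization and 57.6% with median-of-ratios scaling. The WT and *Ltf*-KO values overlapped for 10 of 10 genes, where 8.46% of all tested genes did not overlap (4.73% higher and 3.73% lower in *Ltf*-KO). The median log2 difference of the 10 genes was 0.018, beside 0.011 for all tested genes. It was below 0 without WT replicate 2 (-0.027), *Ltf*-KO replicate 1 (-0.017) or *Ltf*-KO replicate 2 (-0.0027), and 0.12 without *Ltf*-KO replicate 3. The differences of 7 of the 10 genes were above 0, beside 55.7% of all tested genes. A p that misses the threshold does not show equal levels: the intervals allow a log2 difference of 0.74 for *Fos* and of 1.05 for *Atf3*, while for *Jun*, *Junb*, *Fosl1*, *Ier2*, *Egr1* and *Fosl2* they stay within 0.3 on either side of 0. These are RNA levels in cells under constant serum and growth factor, and they do not measure ERK1/2 phosphorylation.

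**Figure D3:**
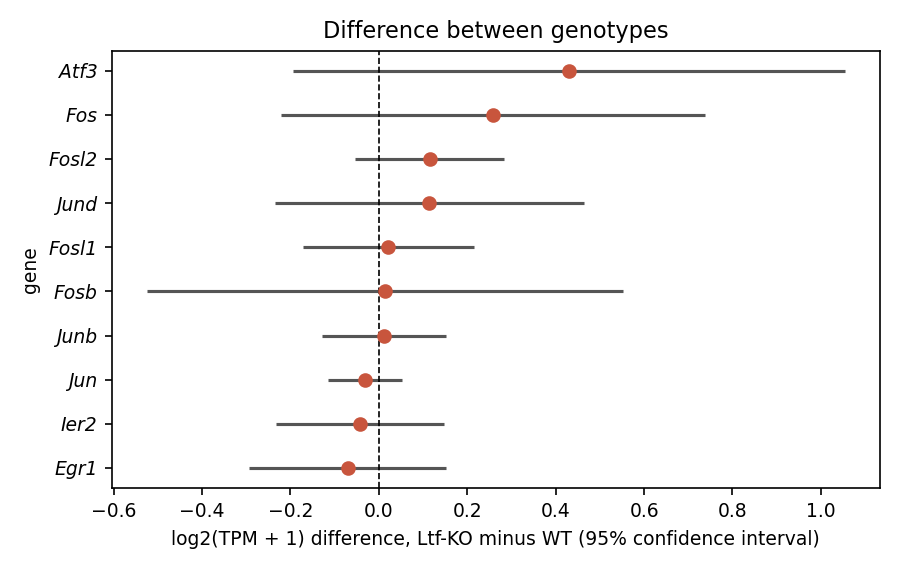
Difference of log2(TPM + 1), *Ltf*-KO minus WT, for each gene as a point with its 95% confidence interval from limma (3 libraries in each genotype). The 10 intervals include 0, and those of *Atf3*, *Fosb* and *Fos* are the widest.

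The libraries of one genotype differed from each other in a pattern that most of the 10 genes shared. In WT replicate 2, 0 of the 10 genes were above the mean of the other 2 WT libraries on the log2 scale, and in *Ltf*-KO replicate 3, 0 of the 10 were above the mean of the other 2 *Ltf*-KO libraries. Of all tested genes, 50.9% and 45.9% were above it in these libraries. The numbers were 7 and 8 genes in WT replicates 1 and 3 and 9 and 9 genes in *Ltf*-KO replicates 1 and 2. The median deviation of the 10 genes from the other libraries of the genotype was -0.17 in WT replicate 2 and -0.27 in *Ltf*-KO replicate 3 (log2), beside 0.0025 and -0.013 for all tested genes. WT replicate 2 was the lowest WT library for 9 of the 10 genes (all but *Fosl2*), a rank it held for 31.3% of all tested genes, although for *Egr1* it was lower than WT replicate 1 by less than 0.1 TPM. For *Fosl2* it lay between the other 2 WT libraries and only narrowly below their mean. *Ltf*-KO replicate 3 was the lowest *Ltf*-KO library for 9 of the 10 (all but *Atf3*), a rank it held for 37.5% of all tested genes. Both ranks held for 8 of the 10 genes and for 14.4% of all tested genes. These genes respond to common signals and are not independent, so the counts describe 2 libraries and carry no test. For *Ltf*-KO replicate 3, the count of 0 was the same with quantile normalization and with median-of-ratios scaling. For WT replicate 2 this was not examined.

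The same 2 libraries stood at the other end for genes of muscle differentiation. *Myog*, the myogenic factor that starts terminal differentiation, was at 319, 410.3 and 293 TPM in WT and at 360.4, 266 and 508 TPM in *Ltf*-KO SCs, highest in WT replicate 2 and *Ltf*-KO replicate 3. Of the 10 listed differentiation genes (among them *Myog*, *Mymk*, *Myh3* and *Actc1*), 10 were highest in *Ltf*-KO replicate 3 among the *Ltf*-KO libraries, beside 31.1% of all tested genes, and 9 (all but *Ckm*) were highest in WT replicate 2 among the WT libraries, beside 34.4%. Both ranks held for 9 of the 10, beside 13.5% of all tested genes. Their summed level was 2929, 3737 and 2738 TPM in WT and 3204, 2709 and 4378 TPM in *Ltf*-KO SCs, and between genotypes none of these 10 passed an unadjusted p of 0.05. Thus the library with the most differentiation RNA in each genotype was the one with the least RNA of most immediate early and AP-1 genes. At the other end the relation was weaker. WT replicate 3 and *Ltf*-KO replicate 2 had the least differentiation RNA of their genotype. Each was the highest library for 5 of the 10 immediate early and AP-1 genes, beside 35.3% and 36.6% of all tested genes. In bulk RNA, fewer cells of a type and less RNA per cell cannot be told apart. The summed level of 5 endothelial markers moved the other way, at 7.36, 5.68 and 14.2 TPM in WT and 11.5, 13.3 and 5.68 TPM in *Ltf*-KO SCs, and that of 4 Schwann cell markers was 12.3, 16.7 and 23.1 TPM and 18.3, 20.6 and 14.4 TPM. Fibroblast markers (6 genes) summed to 5.68 to 10.6 TPM in WT and 8.66 to 12.8 TPM in *Ltf*-KO SCs, macrophage markers (6 genes) to 12.15 to 17.98 and 9.86 to 12.9 TPM, neutrophil markers (4 genes) to 0.79 to 3.32 and 1.01 to 3.37 TPM, erythroid markers (3 genes) to 9.43 to 11.4 and 9.35 to 12.9 TPM, and smooth muscle and pericyte markers (5 genes, mostly *Acta2*) to 444 to 528 and 492 to 625 TPM. Within the smooth muscle and pericyte list, *Acta2* was at 409 to 593 TPM and *Cspg4* at 30.8 to 41.1 TPM over the libraries. *Rgs5*, *Myh11* and *Kcnj8* were at 0.62 TPM or less in each library. The macrophage gene *Adgre1* was listed at 0 in WT replicates 2 and 3 and in *Ltf*-KO replicates 1 and 3, and *Csf1r* was at 0.05 to 0.39 TPM. Other macrophage markers were higher: *Cd14* was at 6.27 to 8.18 TPM and *Cd68* at 3.12 to 3.98 TPM over the libraries. *Lyz2* ranged from 0.38 TPM in WT replicate 3 and *Ltf*-KO replicate 3 to 7.22 TPM in WT replicate 1. The part of any of these cell types or of differentiation in the levels of the 10 genes was not tested. Leaving out both libraries together, an alternative chosen after seeing the data, gave a median log2 difference of 0.037, with none of the 10 passing an unadjusted p of 0.05.

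**Figure D4:**
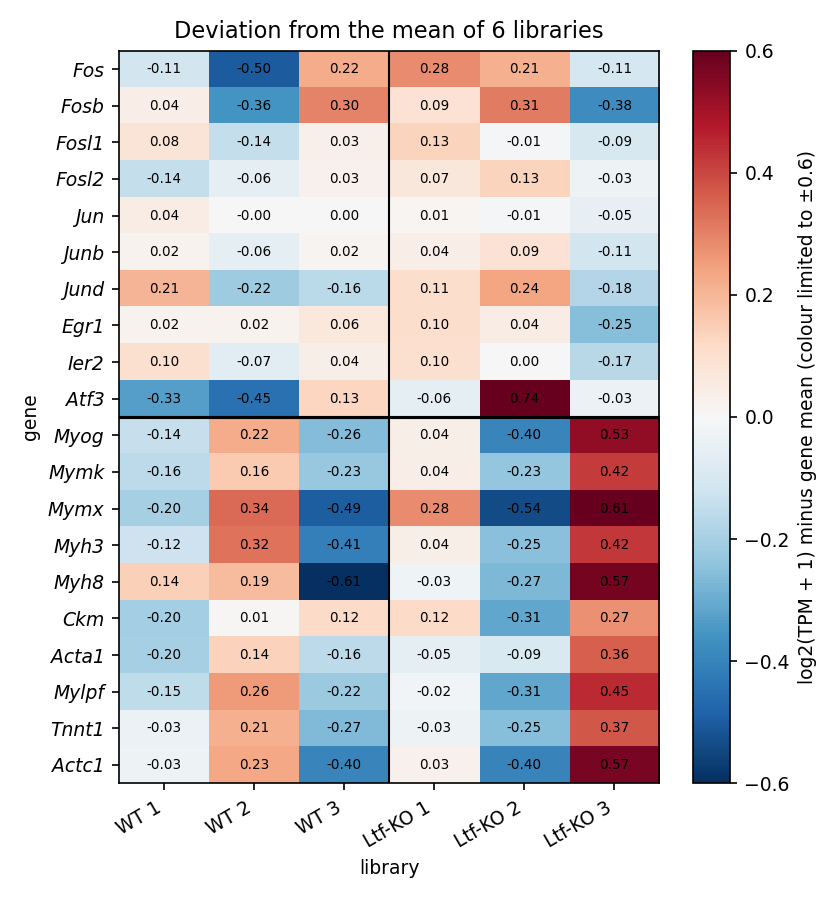
Deviation of log2(TPM + 1) from each gene's mean over the 6 libraries, as colour and number, for the 10 immediate early and AP-1 genes (above the line) and the 10 differentiation genes (below it). In *Ltf*-KO replicate 3 the upper block is below its mean and the lower block above it, and *Jun* varies least.

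The size of the spread differed widely among the 10 genes. The SD of log2(TPM + 1) within a genotype, pooled over both genotypes, was 0.39 for *Atf3*, 0.34 for *Fosb*, 0.30 for *Fos*, 0.22 for *Jund*, 0.14 for *Egr1*, 0.12 for *Fosl1*, 0.11 for *Ier2*, 0.083 for *Fosl2*, 0.079 for *Junb* and 0.028 for *Jun*. The median over all tested genes was 0.104, and since low TPM values spread more, each gene was also ranked among the 500 tested genes nearest to it in mean level. *Fosb* and *Jund* spread more than 95.6% of their neighbours, *Atf3* more than 91.8%, *Egr1* more than 90.6%, *Fos* more than 87.8% and *Fosl1* more than 86.0%. *Ier2* (78.2%) and *Junb* (68.6%) lay above the middle, *Fosl2* (36.6%) below it, and *Jun* spread more than only 8.40% of its neighbours. Across the 6 libraries *Jun* ranged over 1.07-fold, *Junb* over 1.15-fold and *Fosl1* over 1.21-fold, at nearly the same level, and the lower *Fos* and *Atf3* ranged over 1.89-fold and 2.77-fold. The pooled spread of *Egr1* came mainly from *Ltf*-KO replicate 3, with an SD of 0.19 in *Ltf*-KO and 0.023 in WT SCs. *Fosb*, *Fosl1*, *Fosl2* and *Jund* had similar SDs in both genotypes.

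**Figure D5:**
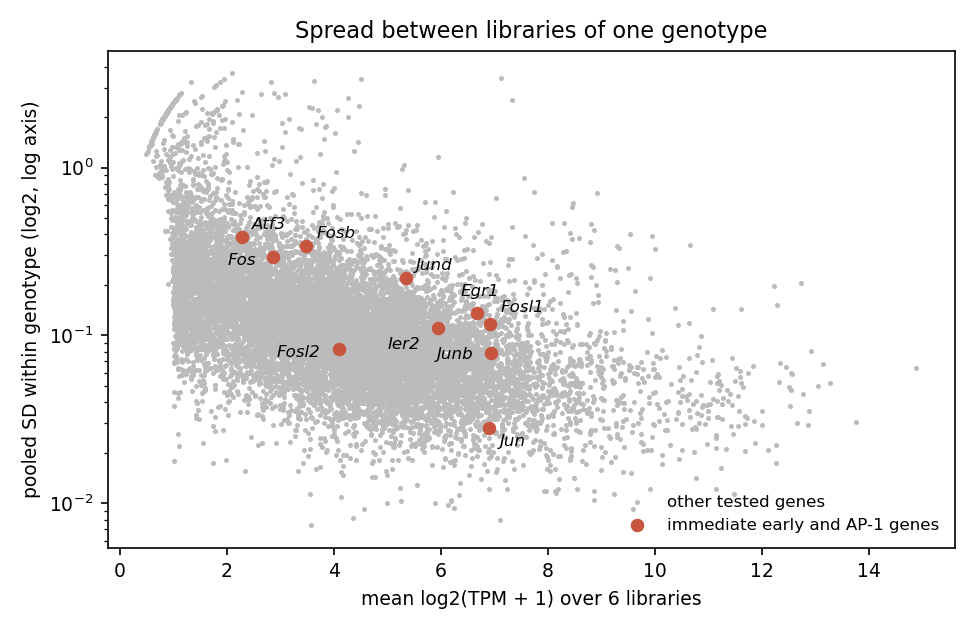
Pooled SD of log2(TPM + 1) within a genotype (log axis) against the mean log2(TPM + 1) over 6 libraries, for all 12956 tested genes (grey) and the 10 immediate early and AP-1 genes (red). *Atf3*, *Fosb*, *Fos* and *Jund* lie in the upper part of the cloud at their level and *Jun* in the lower part.

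Likeness of patterns was measured as the root mean square difference between profiles of log2(TPM + 1), each centred on its own mean, over the 6 libraries. The measure depends on the size of the spread as well as on its direction. For *Fos*, *Fosb* was the nearest of the other 9 genes (0.168). *Atf3* (0.276), which spread most, and *Jun* (0.273), which spread least, were the furthest, so their distance does not rank likeness of direction. Among 12946 other tested genes, whose median was 0.287, the nearest to *Fos* were *Gm10734* (0.0881), *3300005D01Rik* (0.0901) and *Pid1* (0.0957). *3300005D01Rik* was at 5.67, 4.33 and 6.62 TPM in WT and at 8.23, 6.67 and 5.18 TPM in *Ltf*-KO SCs, while the other 2 were at 2 TPM or less in each library. For *Atf3*, which had the largest range of the 10, the nearest genes were *Clcn2*, a chloride channel (0.0964), *Gm44698* (0.125) and *Gm47950* (0.129), with a median of 0.390 over all, and *Fos* was the most similar of the 10 (0.276). These values rest on 6 libraries and are descriptions.

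Of 36 other listed immediate early genes, 34 were tested, with a median log2 difference of 0.037 between *Ltf*-KO and WT. At an unadjusted p under 0.05, 2 were higher in *Ltf*-KO and 0 lower, where 2.01% of all tested genes were higher and 1.78% lower, and 0 had an adjusted p under 0.05. *Egr2*, a relative of *Egr1*, was at 3.99, 3.49 and 3.89 TPM in WT and at 5.54, 5.78 and 3.98 TPM in *Ltf*-KO SCs. The groups overlapped only in that *Ltf*-KO replicate 3 was just below WT replicate 1 (log2 difference 0.34, standard error 0.14, limma adjusted p = 0.999). *Btg2*, an antiproliferative gene, was at 14.5, 15.0 and 15.7 TPM in WT and at 16.9, 16.4 and 17.4 TPM in *Ltf*-KO SCs, without overlap, as for 8.46% of all tested genes (log2 difference 0.15, standard error 0.055, limma adjusted p = 0.999). With 1 library left out, *Egr2* kept an unadjusted p under 0.05 only without *Ltf*-KO replicate 3, and *Btg2* only without WT replicate 3 or *Ltf*-KO replicate 2, and both lost it with quantile normalization and under a replicate block, and *Egr2* also with no filter and with median-of-ratios scaling. WT replicate 2 and *Ltf*-KO replicate 3 were both lowest in their genotype for 19 of the 34 tested genes, beside 14.4% of all tested genes.

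Among 17 listed bZIP relatives that can pair with AP-1 proteins or resemble them, 13 were tested, and 1 was higher in *Ltf*-KO at an unadjusted p under 0.05 and 0 lower (3.78% of all tested genes passed in either direction), with a median log2 difference of -0.0082. This gene was *Batf*, a bZIP factor without an activating domain that pairs with Jun proteins. It was at 13.2, 14.5 and 11.5 TPM in WT and at 18.9, 16.7 and 18.1 TPM in *Ltf*-KO SCs, without overlap, as for 8.46% of all tested genes. Its log2 difference was 0.43 (standard error 0.094, 95% confidence interval 0.20 to 0.65), and its adjusted p over all genes was 0.999 (limma). Its direction held in each alternative run, from 0.34 to 0.50 with 1 library left out. *Jdp2*, which lies between *Fos* and *Batf* on chromosome 12, was at 27.8 to 33.9 TPM in WT and at 27.8 to 29.9 TPM in *Ltf*-KO SCs.

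Of 12 listed factors that bind immediate early promoters, all were tested and 0 had an unadjusted p under 0.05. Of all tested genes, 3.78% had one, so a count of 0 in a list this short is no result about its genes. The ETS factor *Elk3* was at 57.3 to 59.6 TPM in WT and 54.0 to 64.7 TPM in *Ltf*-KO SCs, and *Srf*, the serum response factor, was at 46.0 to 54.6 and 47.8 to 57.05 TPM. Of 15 listed genes known as AP-1 targets in other cells, 13 were tested and 0 had an unadjusted p under 0.05, beside 3.78% of all tested genes. Their log2 differences ranged from -0.0418 to 0.698, with a median of 0.0165, beside 0.0111 for all tested genes. The difference was above 0 for 11 of the 13, beside 55.7% of all tested genes, a count that carries no test. *Spp1*, which encodes osteopontin, was at 6746, 6387 and 7319 TPM in WT and at 6978, 8253 and 5668 TPM in *Ltf*-KO SCs, and *Timp1*, an inhibitor of matrix metalloproteinases, was at 511 to 571 and at 502 to 581 TPM. WT replicate 2 and *Ltf*-KO replicate 3 were both lowest in their genotype for 7 of these 13 target genes, *Spp1* among them, beside 14.4% of all tested genes. Of 13 listed heat shock genes, which respond to stress and handling, all were tested and 0 had an unadjusted p under 0.05, beside 3.78% of all tested genes. The chaperones *Hsp90ab1* (2219 to 2313 TPM over the 6 libraries) and *Hspa8* (1986 to 2113 TPM), the 2 with the highest mean, stayed nearly level. Not all of the list did so. WT replicate 2 and *Ltf*-KO replicate 3 were both lowest for 4 of these 13 genes, beside 14.4% of all tested genes. The 4 were *Hspa1a*, *Hspa1b*, *Hspb1* and *Hspe1*. *Hspa1b* was at 15.3, 12.9 and 16.5 TPM in WT and at 15.4, 19.8 and 13.0 TPM in *Ltf*-KO SCs.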

How the data were processed

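RNA of SCs was sequenced at GeneDenovo. The authors deposited TPM values with 2 decimals for 55416 genes, 1 column per library, normalized by the manufacturer's protocol. Per the submitters' processing notes the build was GRCm39, while the aligner, counter and annotation release are not given in the sources used here. The unit TPM was taken from the deposited values, whose column sums are nearly equal. Read depth is unknown, so precision was judged from the spread between the 3 libraries of a genotype.

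Libraries were assigned by their labels. Genes averaging 1 TPM or more (12956, 23.4%) were tested with limma 3.58.1 in R 4.3.3 (lmFit, eBayes with trend, two-sided, Benjamini-Hochberg over all tested genes) on log2(TPM + 1), a scale that understates changes of low genes. The fit was tested on simulated data. Alternatives were a pseudocount of 0.1, no filter, a minimum mean of 10 TPM, a replicate block, quantile normalization, median-of-ratios scaling and leaving out libraries. The 10 genes and all gene lists were chosen with earlier results of these data known. Genes named were the 10, *Ltf*, from each companion list those with the lowest unadjusted p if under 0.05 and otherwise the 2 with the highest mean, and the 3 genes nearest in pattern to *Fos* and to the gene of largest range. Marker genes, *Jdp2*, the heat shock genes *Hspa1a*, *Hspa1b*, *Hspb1* and *Hspe1*, and the examples among differentiation genes were named outside this rule. Gene structure is from GENCODE M21 (GRCm38), matched by gene ID, and promoters are from RefSeq (GRCm38.p6), a build other than the authors'. Count models were not used, since TPM holds no counts.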

Additional observations from a re-analysis of the deposited data

How the results depend on the processing

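None of the 10 genes had an unadjusted p under 0.05 in any alternative run. The lowest such p was 0.0568 and the lowest adjusted p 0.946. Of 128 values of their log2 difference under alternatives, 13 had the opposite sign to the reported one, in 5 genes, and *Fos*, *Fosl2*, *Jun*, *Jund* and *Atf3* kept their sign throughout. With 1 library left out, log2 differences ranged from -0.161 to 0.206 for *Fosb*, from -0.0451 to 0.0744 for *Fosl1*, from -0.0285 to 0.0689 for *Junb*, from -0.141 to 0.0385 for *Egr1* and from -0.102 to 0.0295 for *Ier2*. *Fosb* was -0.0114 with quantile normalization, *Junb* was -0.000912 with median-of-ratios scaling, and *Egr1* was 0.0318 without both WT replicate 2 and *Ltf*-KO replicate 3. Likewise, *Fos* ranged from 0.0728 to 0.435, *Fosl2* from 0.073 to 0.158, *Jun* from -0.0456 to -0.0139, *Jund* from 0.0231 to 0.245 and *Atf3* from 0.168 to 0.602. The median of the 10 genes ranged from -0.027 (without WT replicate 2) to 0.116 (without *Ltf*-KO replicate 3), and was -0.0166 and -0.0027 without *Ltf*-KO replicates 1 and 2. The cause was not tested.

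Genes at an adjusted p under 0.05 numbered 0 to 6 with 1 library left out and 11 without both WT replicate 2 and *Ltf*-KO replicate 3. Genes at an unadjusted p under 0.05 numbered 490, against 890 with no filter and 281 with a minimum mean of 10 TPM, settings that change how many genes enter the test. Whether the replicate numbers of the labels pair the libraries could not be told. Deviations of same-numbered libraries correlated at -0.0413, -0.0582 and -0.0875 across genes, and those of other pairs at -0.0259 to 0.0868. WT replicate 2 and *Ltf*-KO replicate 3, which shared a pattern in the 10 genes, gave 0.0173. No true pair is known for comparison, so values near 0 do not exclude a pairing. Under a replicate block, 380 genes and 0 of the 10 passed an unadjusted p of 0.05. *Fos* and *Atf3* are below 10 TPM and have no value under that filter. The median pooled SD of the 10 genes was 0.127, and 0.095 to 0.144 with 1 library left out. Read depth is unknown, so no counting error can be given for any value.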
